A study of Homo sapiens with 24 samples.

Results

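The T lineage transcription factors described here are 10 genes that act in T-cell development, listed by name, in a series with 19775 genes that have a probe set of their own: BCL11B, GATA3, LEF1, TCF7, RUNX1, RUNX3, IKZF1, MYB, ETS1 and TCF12. Each gene is represented by its brightest probe set (by the mean of the 24 arrays) among those annotated to it alone. Of the 10 genes, 8 had such a probe set and all 8 passed the filter on low values. No probe set was annotated to TCF7, and the 13 annotated to RUNX1 also carried other genes, so neither is analysed here. The 4 lines were RPMI-8402, P12-ICHIKAWA, SUPT11 and TALL-1, all established from T-cell acute lymphoblastic leukaemia (T-ALL). Cells of each line received NVS-ZP7-3 or only the solvent (0.5% DMSO) for 16 h, with 3 arrays for each of the 8 groups. No dose is given in the labels. Nor do they state that the 3 arrays of a group came from separate cultures, and the p-values then cover only the spread among these samples, possibly a technical one.

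T-cell identity is set up in the thymus by Notch signalling, which turns on TCF7 (the protein TCF1) and GATA3, and these in turn lead to BCL11B, the zinc finger factor that closes off other fates and marks commitment to the lineage. LEF1 is a close relative of TCF1 and shares its HMG box and its partner beta-catenin. RUNX factors, IKZF1 (Ikaros), MYB, ETS1 and the E protein TCF12 (HEB) bind many of the same enhancers, and several of these genes are mutated, deleted or overexpressed in T-ALL.

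Values are log2 expression values with a floor of 2.18, and 52.4 to 53.9% of an array's probe sets were no more than 0.1 above it. Some probe sets repeat a higher constant value instead: of 29112 whose lowest value recurs on 3 or more arrays, 128 have it more than 0.5 above the floor. None of the 8 probe sets that stand for the members is among the 29112. Changes are NVS-ZP7-3 minus DMSO from limma, fitted to all 24 arrays, and a gene was called below an adjusted p of 0.05 (Benjamini-Hochberg over 10661 tested genes). In a bulk sample fewer cells of a type and less RNA per cell cannot be told apart. Of the arrays, 3 stood apart from the rest of their line, since they carried signal of genes that were at the floor on the line's other arrays and bright in another line: array 2 of TALL-1 with NVS-ZP7-3 (21.4% of such genes raised by 1 or more), array 2 of SUPT11 with NVS-ZP7-3 (17.9%) and array 3 of RPMI-8402 with DMSO (15.9%). The other 21 arrays had at most 1.69%. The members' results and list counts that these 3 arrays change are given with and without them. Of 8 markers of the T lineage (CD3D, CD3E, CD3G, CD7, CD2, CD5, LCK, PTCRA), CD5 in TALL-1 and CD2 in P12-ICHIKAWA were within 0.5 of the floor on every array. PTCRA was at most 4.07 in SUPT11 and RPMI-8402, with the same value on several arrays, and CD7 repeated 5.45 on all 3 RPMI-8402 arrays with DMSO, so these readings do not show that the genes were expressed there. In P12-ICHIKAWA PTCRA read between 4.07 and 4.77, at its lowest close to the value repeated in those lines. These readings do not clearly show expression either. The other markers reached log2 4 in each line. The B-lineage factors PAX5 and EBF1 and the myeloid factors SPI1 and CEBPA were within 0.5 of the floor in all 8 groups. Other markers of these lineages were not. Of 5 measured B-lineage markers, CD79A and CD79B reached log2 4 in P12-ICHIKAWA, and CD79B did in SUPT11 and RPMI-8402. With DMSO, RPMI-8402 had LYZ, S100A8 and S100A9 of 8 myeloid markers and NCAM1 and GNLY of 4 natural killer markers at log2 4 on some array. LYZ also reached it in each other group except P12-ICHIKAWA with DMSO.

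The start-site windows of the members with the clearest changes are shown here, because the members include factors that bind each other's genes. They are RefSeq promoter windows of assembly GRCh38.p14, from 250 bases before to 50 bases after a start site, written 5′ to 3′ on the gene's strand. Capitals mark a match on either strand to any of 5 motifs. The RUNX motif searched was TGTGGT and the motif of TCF and LEF proteins was TCAAAG. For GATA proteins the letters AGATAA were used. For RBPJ, the protein through which Notch reaches DNA, the letters were TGGGAA. The ETS motif was CCGGAAG. BCL11B has 1 window and LEF1 has 1, GATA3 is shown by the one of its 6 windows with the most matches, and RUNX3 by both of its windows.
BCL11B, chr14:99272148-99272447, minus strand: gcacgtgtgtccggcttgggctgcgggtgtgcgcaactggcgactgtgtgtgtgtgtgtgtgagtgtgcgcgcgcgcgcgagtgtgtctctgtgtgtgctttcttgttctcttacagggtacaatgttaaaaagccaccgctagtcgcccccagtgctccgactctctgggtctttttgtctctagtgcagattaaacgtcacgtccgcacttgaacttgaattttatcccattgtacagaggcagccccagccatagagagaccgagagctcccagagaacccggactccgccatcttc
LEF1, chr4:108166252-108166551, minus strand: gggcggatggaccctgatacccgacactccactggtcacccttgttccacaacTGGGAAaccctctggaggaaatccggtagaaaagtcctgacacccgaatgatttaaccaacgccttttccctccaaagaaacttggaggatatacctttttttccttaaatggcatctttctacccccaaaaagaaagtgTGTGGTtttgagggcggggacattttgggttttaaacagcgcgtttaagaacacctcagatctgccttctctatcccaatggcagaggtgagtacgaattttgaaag
GATA3, chr10:8050986-8051285, plus strand: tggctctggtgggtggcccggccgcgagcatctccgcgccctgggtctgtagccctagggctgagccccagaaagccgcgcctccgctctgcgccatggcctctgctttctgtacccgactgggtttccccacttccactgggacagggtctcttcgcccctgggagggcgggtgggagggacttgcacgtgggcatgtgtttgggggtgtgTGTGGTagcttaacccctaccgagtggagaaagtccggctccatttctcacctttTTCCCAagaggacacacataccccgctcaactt
RUNX3, chr1:24964961-24965260, minus strand: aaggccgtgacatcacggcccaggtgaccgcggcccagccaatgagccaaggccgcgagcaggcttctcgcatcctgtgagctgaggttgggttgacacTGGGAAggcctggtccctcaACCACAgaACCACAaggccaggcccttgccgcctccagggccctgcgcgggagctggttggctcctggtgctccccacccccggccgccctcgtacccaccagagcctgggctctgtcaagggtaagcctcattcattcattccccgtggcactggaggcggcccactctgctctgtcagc
RUNX3, chr1:24930227-24930526, minus strand: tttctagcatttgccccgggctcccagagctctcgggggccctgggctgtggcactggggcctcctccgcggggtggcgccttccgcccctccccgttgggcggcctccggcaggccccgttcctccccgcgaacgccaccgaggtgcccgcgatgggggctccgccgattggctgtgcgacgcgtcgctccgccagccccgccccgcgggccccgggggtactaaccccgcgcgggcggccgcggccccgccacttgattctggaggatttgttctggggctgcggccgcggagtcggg

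In the LEF1 window a TGGGAA match lay at bases -197 to -192 from the start site and a TGTGGT match at -57 to -52. The GATA3 window held TGTGGT at -38 to -33 and TGGGAA on the opposite strand at 17 to 22. In the first RUNX3 window the TGTGGT motif occurred on the opposite strand at -131 to -126 and at -123 to -118, beside TGGGAA at -151 to -146. The BCL11B window and the second RUNX3 window held none of the 5 motifs. Over the 22 windows of the 9 members with a window (ETS1 is named only), TGTGGT occurred in 4 (18.2%, against 13.1% of all 35116 windows), TGGGAA in 6 (27.3%, against 24.0%), CCGGAAG in 2 (9.09%, against 10.3%), TCAAAG in 1 (4.55%, against 12.9%) and AGATAA in 1 (4.55%, against 10.3%). A match is a description of letters and not a binding site.

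**Figure D1:**
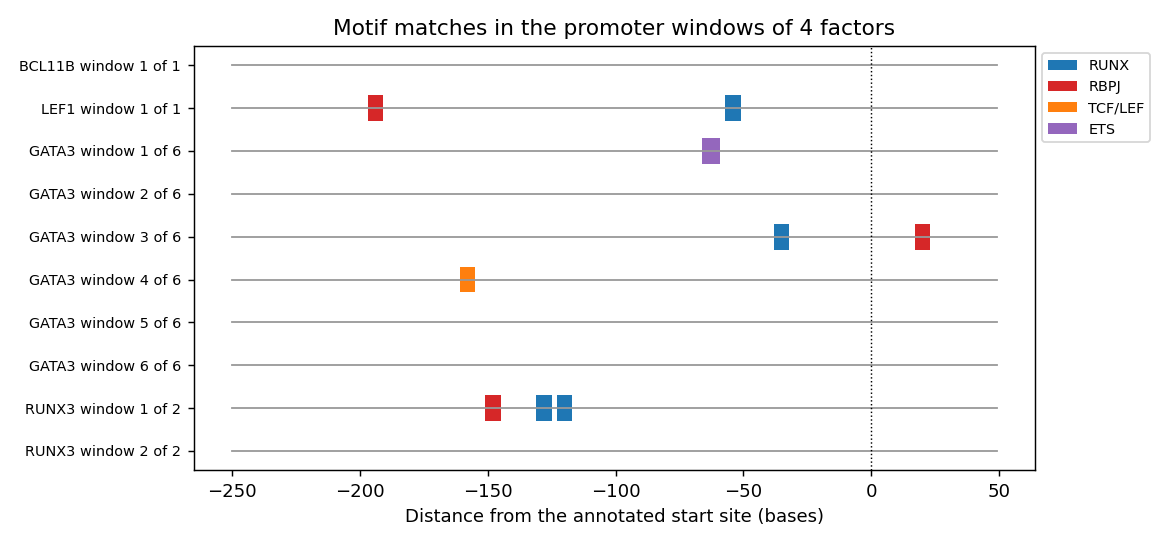
Motif matches (coloured blocks) in the 300-base windows of BCL11B, LEF1, GATA3 and RUNX3, by distance from the annotated start site in bases (x axis), with a row for each window. The first RUNX3 window holds a pair of neighbouring RUNX matches between -131 and -118, and the BCL11B window holds no match.

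GATA3, a zinc finger factor needed from the first T-lineage steps on, was lower in TALL-1 and higher in both P12-ICHIKAWA and RPMI-8402 with NVS-ZP7-3 (probe set 209603_at, chromosome 10). In TALL-1 it read 11.21, 11.34 and 11.42 with NVS-ZP7-3, against 12.22, 12.10 and 12.07 with DMSO. The arrays did not overlap, and the level fell by 0.81 (SE 0.058, adjusted p = 3.04e-09), to 0.571 times the DMSO signal. In P12-ICHIKAWA it read 10.99, 11.00 and 10.95 with NVS-ZP7-3, against 10.36, 10.32 and 10.25 with DMSO. Here too no arrays overlapped, and the level rose by 0.67 (SE 0.058, adjusted p = 3.53e-07), 1.59 times the DMSO signal. In RPMI-8402 the treated arrays read 10.48, 10.58 and 10.56, against 10.38, 10.32 and 10.27 with DMSO, a rise of 0.22 (adjusted p = 0.00635). SUPT11 read 10.65, 10.79 and 10.81 with NVS-ZP7-3 and 10.76, 10.69 and 10.76 with DMSO, and these arrays overlapped (change 0.01). The 4 effects on GATA3 differed from one another (F test of equal effects, adjusted p = 1.55e-09, and 1.32e-07 without the 3 arrays that stood apart). Its other probe sets moved the same way: 209604_s_at fell by 1.08 and 209602_s_at by 1.09 in TALL-1, and they rose by 0.43 and 0.72 in P12-ICHIKAWA and by 0.27 and 0.40 in RPMI-8402, all called when each probe set was tested by itself.

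BCL11B (222895_s_at, chromosome 14) fell in TALL-1 and was not called in any other line. In TALL-1 it read 13.64, 13.82 and 13.84 with NVS-ZP7-3, against 14.34, 14.29 and 14.31 with DMSO. All treated arrays were below all DMSO arrays. The change was -0.54 (SE 0.056, 95% interval -0.66 to -0.43, adjusted p = 3.08e-07), or 0.686 times the DMSO signal. In SUPT11 it averaged 14.11 ± 0.0272 with NVS-ZP7-3 and 14.11 ± 0.0188 with DMSO (SD, n = 3 each). P12-ICHIKAWA averaged 14.29 ± 0.0343 with NVS-ZP7-3 and 14.26 ± 0.0612 with DMSO, and RPMI-8402 averaged 14.25 ± 0.0618 with NVS-ZP7-3 and 14.33 ± 0.0984 with DMSO. The effect in TALL-1 was lower than the mean effect in the other 3 lines by a difference of -0.53 (SE 0.065, adjusted p = 7.68e-06). A second BCL11B probe set, 219528_s_at, fell by 0.80 in TALL-1 and, when tested by itself, also by 0.18 in RPMI-8402 (adjusted p = 0.0173 over the probe sets tested).

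LEF1 (221558_s_at, chromosome 4) fell in TALL-1, where it read 14.64, 14.63 and 14.54 with NVS-ZP7-3, against 14.86, 14.84 and 14.86 with DMSO. No arrays overlapped, and the level fell by 0.25 (SE 0.045, adjusted p = 0.000177). In the other lines its changes lay between -0.00 and 0.05 and none was called, though in SUPT11 the treated arrays (14.62, 14.65 and 14.64) lay just above the DMSO arrays (14.58, 14.60 and 14.62). The dimmer LEF1 probe set 210948_s_at averaged 10.72 with NVS-ZP7-3 and 11.60 with DMSO in TALL-1, and it fell by 0.88. The probe set 221557_s_at was near the floor in TALL-1 (3.08 and 3.09), and in RPMI-8402 it fell by 1.02 (adjusted p = 0.00807 over the probe sets tested).

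**Figure D2:**
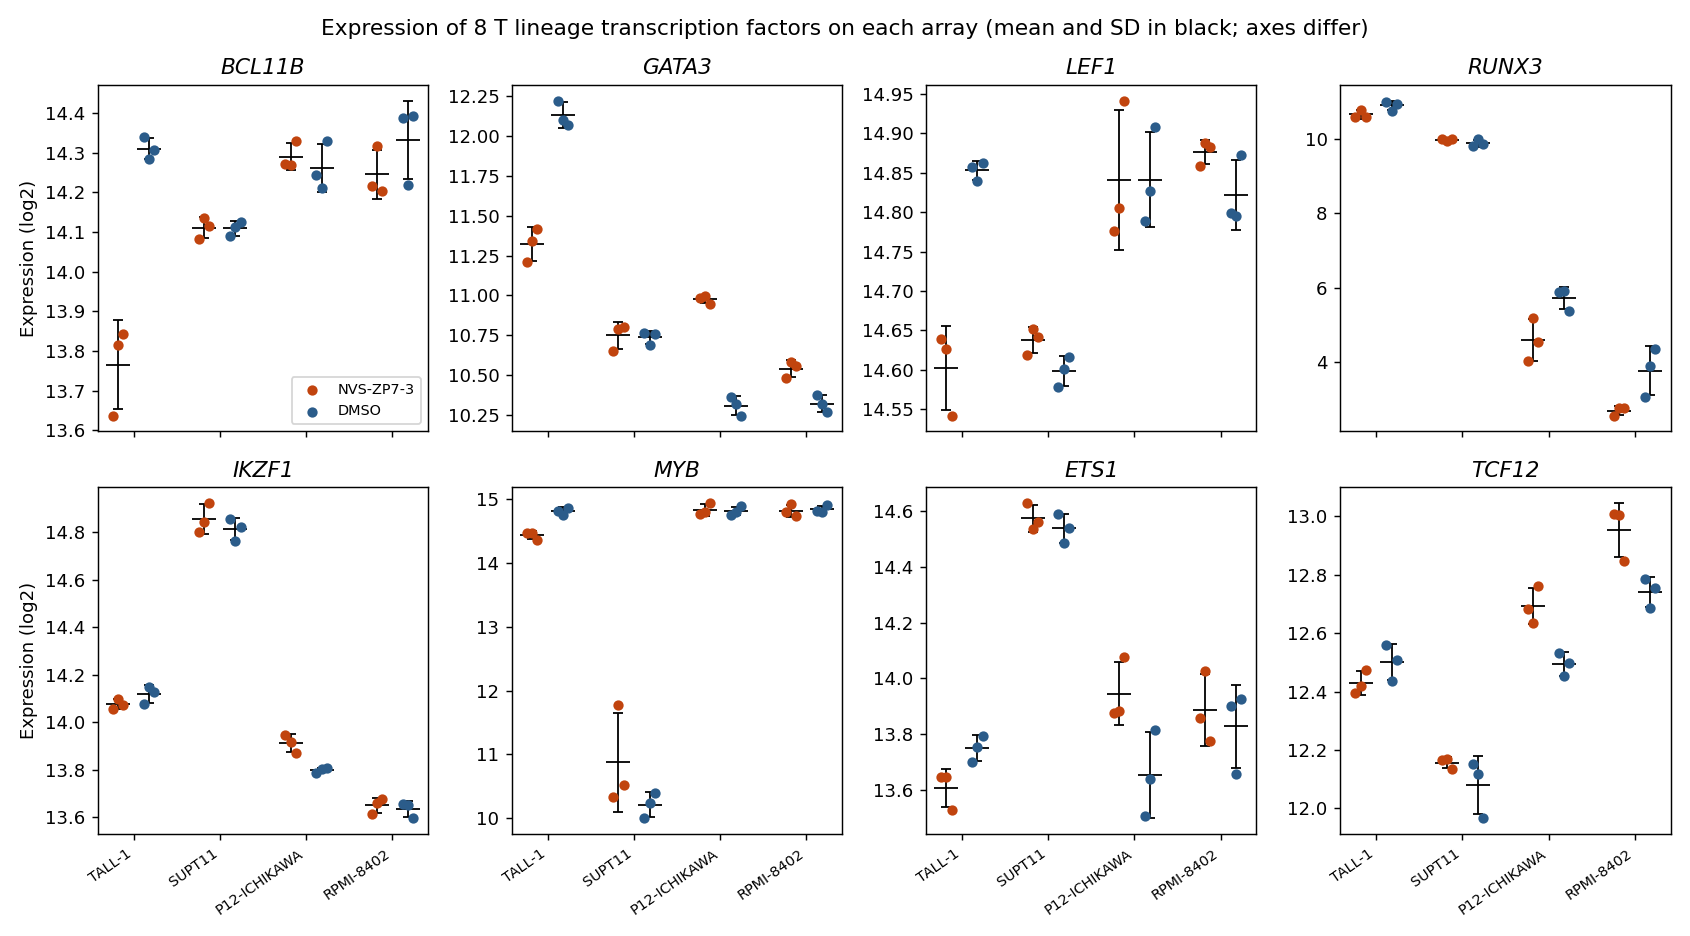
Log2 expression value (y axis, which differs between panels) of the 8 measured factors by line, NVS-ZP7-3 left of DMSO. Points are arrays, and black bars are the mean and SD (n = 3). GATA3 in TALL-1 sits at 11.21 to 11.42 with NVS-ZP7-3 and at 12.07 to 12.22 with DMSO, and MYB in SUPT11 has 1 treated array at 11.77.

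RUNX3 (204197_s_at, chromosome 1), a RUNX family factor of the CD8 lineage, had the widest range among lines of the 8 members. With DMSO, TALL-1 averaged 10.90 ± 0.129, SUPT11 averaged 9.89 ± 0.0918, P12-ICHIKAWA averaged 5.73 ± 0.307 and RPMI-8402 averaged 3.78 ± 0.652 (SD, n = 3 each), and each neighbour in that order was higher than the next (differences 1.01, 4.16 and 1.95, the largest adjusted p being 0.00159). In P12-ICHIKAWA it read 4.05, 5.20 and 4.55 with NVS-ZP7-3, against 5.89, 5.93 and 5.38 with DMSO. These arrays did not overlap, and the level fell by 1.13 (SE 0.26, adjusted p = 0.00968). In RPMI-8402 it read 2.57, 2.76 and 2.79 with NVS-ZP7-3, against 3.07, 3.91 and 4.36 with DMSO, and it fell by 1.07 (adjusted p = 0.00305). The treated arrays there were close to the floor, and array 3 of the DMSO group is one of those that stood apart. Without the 3 arrays RUNX3 in RPMI-8402 fell by 0.79 (adjusted p = 0.0346). The second RUNX3 probe set that passed the filter, 204198_s_at, changed by -0.82 in P12-ICHIKAWA and by -0.48 in RPMI-8402, neither of which was called. In TALL-1 and SUPT11, where RUNX3 was bright, its changes were -0.24 and 0.09 and were not called.

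MYB (204798_at, chromosome 6), a factor of proliferating progenitors and a recurrent T-ALL oncogene, was at 14.81 to 14.84 with DMSO in TALL-1, P12-ICHIKAWA and RPMI-8402 and at 10.22 ± 0.201 in SUPT11 (SD, n = 3). TALL-1 was 4.59 above SUPT11 (SE 0.226, adjusted p = 4.63e-13), while the 3 bright lines did not differ from one another by the test. In TALL-1 the arrays read 14.48, 14.46 and 14.37 with NVS-ZP7-3, against 14.81, 14.75 and 14.87 with DMSO. They did not overlap, yet the change of -0.37 was not called (adjusted p = 0.209). The fit uses 1 spread for all 8 groups, and that of SUPT11 with NVS-ZP7-3 was 0.78 (SD, n = 3). In SUPT11 the arrays read 10.34, 11.77 and 10.52 with NVS-ZP7-3, against 10.00, 10.24 and 10.40 with DMSO, and the high one, 11.77, is the array that carried foreign transcripts. Without the 3 arrays MYB changed by 0.21 in SUPT11 (adjusted p = 0.702) and fell by 0.39 in TALL-1 (SE 0.0986, adjusted p = 0.00582). The dim MYB probe set 215152_at averaged 2.71 with NVS-ZP7-3 and 4.27 with DMSO in TALL-1, and it fell by 1.56 when tested by itself.

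The values of ETS1 (224833_at, chromosome 11), TCF12 (208986_at, chromosome 15) and IKZF1 (227346_at, chromosome 7) changed by 0.29 or less. ETS1, founder of the ETS family, rose by 0.29 in P12-ICHIKAWA (SE 0.085, adjusted p = 0.0407), where it averaged 13.94 ± 0.113 with NVS-ZP7-3 and 13.65 ± 0.154 with DMSO (SD, n = 3 each). That call held under 6 of 17 alternatives (adjusted p 0.0133 to 0.269). TCF12 read 12.68, 12.64 and 12.76 in P12-ICHIKAWA with NVS-ZP7-3, against 12.53, 12.45 and 12.50 with DMSO, a rise of 0.20 (adjusted p = 0.0346) that held under 9 of 17 alternatives (adjusted p 0.0217 to 0.659). In RPMI-8402 it read 13.01, 13.01 and 12.85 with NVS-ZP7-3, against 12.78, 12.69 and 12.75 with DMSO, a rise of 0.21 (adjusted p = 0.00585). In all 3 of these comparisons the treated arrays were above all DMSO arrays. IKZF1 was not called in any line, with changes between -0.04 and 0.11. Its treated arrays in P12-ICHIKAWA (13.95, 13.92 and 13.87) still lay above those with DMSO (13.79, 13.80 and 13.81). The dimmer IKZF1 probe set 227344_at, tested by itself, rose there by 0.26 (adjusted p = 0.0138 over the probe sets tested). By the same test the ETS1 probe set 1555355_a_at rose by 0.20 in P12-ICHIKAWA (adjusted p = 0.0355) and fell by 0.29 in RPMI-8402 (adjusted p = 0.000594). With DMSO, IKZF1 was highest in SUPT11 (14.81 ± 0.0464), followed by TALL-1 (14.12 ± 0.0379), P12-ICHIKAWA (13.80 ± 0.00975) and RPMI-8402 (13.64 ± 0.0333), and each neighbour in that order differed (the largest adjusted p was 0.00147).

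With DMSO the level of all 8 members differed among the 4 lines, as it did for 96.3% of all genes tested. These comparisons use the brightest probe set of each gene, and its other probe sets need not give the same order. BCL11B varied least, between 14.11 in SUPT11 and 14.33 in RPMI-8402. RPMI-8402, TALL-1 and P12-ICHIKAWA were neighbours that did not differ by the test, and SUPT11 was below P12-ICHIKAWA by a difference of -0.15 (adjusted p = 0.0197). GATA3 was highest in TALL-1 (12.13 ± 0.079), then SUPT11 (10.74 ± 0.0422), with RPMI-8402 (10.32 ± 0.0543) and P12-ICHIKAWA (10.31 ± 0.0585) not told apart (adjusted p = 0.894). LEF1 was lowest in SUPT11 (14.60 ± 0.0188), and the other lines lay between 14.82 and 14.85 without a difference by the test. Its dimmer probe sets were less alike in these lines. With DMSO, 210948_s_at averaged 11.60 in TALL-1, 11.25 in RPMI-8402, 10.88 in P12-ICHIKAWA and 10.33 in SUPT11. For 221557_s_at the means were 3.09 in TALL-1, 5.78 in RPMI-8402, 8.14 in P12-ICHIKAWA and 4.95 in SUPT11. TCF12 was highest in RPMI-8402 (12.74 ± 0.0507) and lowest in SUPT11 (12.08 ± 0.0989), with TALL-1 and P12-ICHIKAWA at 12.50 and 12.49 and not told apart (adjusted p = 0.971). The TCF12 probe set 238041_at was instead lowest in TALL-1 (9.85), followed by SUPT11 (10.27), P12-ICHIKAWA (10.32) and RPMI-8402 (10.51). ETS1 was higher in SUPT11 (14.54 ± 0.0515) than in RPMI-8402 (difference 0.71, adjusted p = 2.87e-07), and the other 3 lines lay between 13.65 and 13.83 without a difference by the test. By pairs of lines with DMSO, all 8 members were called between TALL-1 and SUPT11 (78.9% of genes), SUPT11 and P12-ICHIKAWA (77.4%) and SUPT11 and RPMI-8402 (79.7%). Between TALL-1 and P12-ICHIKAWA 3 were called (70.3%), between TALL-1 and RPMI-8402 4 (70.8%), and between P12-ICHIKAWA and RPMI-8402 3 (65%).

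Counted by line, 3 members were called lower in TALL-1 (BCL11B, GATA3 and LEF1) and 0 higher. Of all genes there 41.9% were called, 22.3% higher and 19.6% lower, so the share of members called was near the background. In P12-ICHIKAWA 3 members were called higher (GATA3, ETS1 and TCF12) and 1 lower (RUNX3), where 7.89% of genes were called, 4.91% higher and 2.98% lower. Among the RPMI-8402 arrays 2 members were called higher (GATA3 and TCF12) and 1 lower (RUNX3), against 36.6% of genes, 15.1% higher and 21.5% lower. For SUPT11 limma called 0 of 8, against 1.76% of genes, 1.18% higher and 0.582% lower, and 1 member (MYB) had an unadjusted p below 0.05. Arrays of the treated and the DMSO group did not overlap for 3 members in RPMI-8402 (49.2% of genes), 5 in P12-ICHIKAWA (21.4%), 1 in SUPT11 (16.6%) and 5 in TALL-1 (48.8%). The 8 members had a median change of 0.03 in RPMI-8402, 0.07 in P12-ICHIKAWA, 0.04 in SUPT11 and -0.25 in TALL-1, and that of all genes lay between -0.02 and 0.00 in every line. On average over the lines BCL11B fell by 0.15 (adjusted p = 0.000244), RUNX3 fell by 0.59 (adjusted p = 0.00105) and TCF12 rose by 0.10 (adjusted p = 0.00501), where 46.9% of genes were called, 22.4% higher and 24.5% lower.

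**Figure D3:**
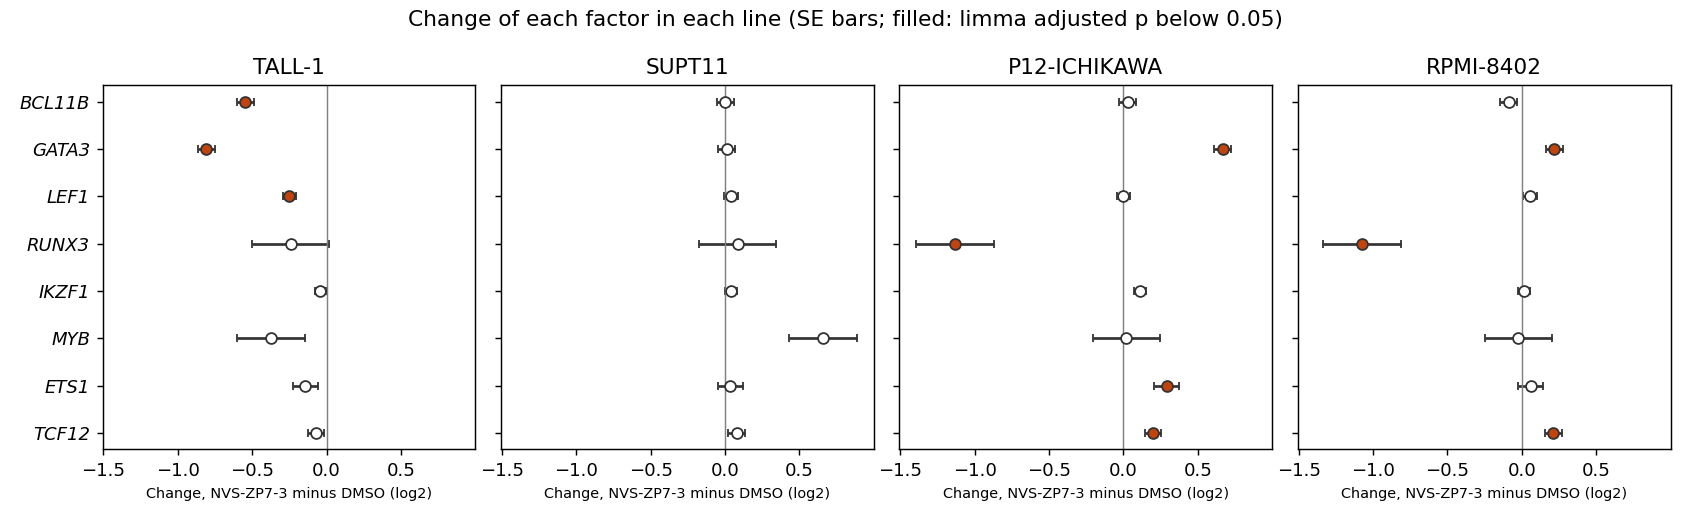
Change with NVS-ZP7-3 against DMSO (log2, x axis) of the 8 measured factors in each line, with SE bars and filled points for an adjusted p below 0.05. GATA3 lies at -0.81 in TALL-1 and at 0.67 in P12-ICHIKAWA, and RUNX3 lies at -1.13 in P12-ICHIKAWA.

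The effects differed among the lines for 6 of the 8 members by the F test (BCL11B, GATA3, LEF1, RUNX3, ETS1 and TCF12), where 35.8% of genes did. Set against the mean of the other 3 lines, the effect in TALL-1 was lower for 5 members (28.6% of genes were called in that contrast, 16.9% higher and 11.8% lower): GATA3 by a difference of -1.11, BCL11B by -0.53, LEF1 by -0.28, ETS1 by -0.27 and TCF12 by -0.23. Without the 3 arrays that stood apart the ETS1 call was lost (adjusted p = 0.0573) and MYB was called lower by a difference of -0.47 (adjusted p = 0.00723). By the same contrast the effect in SUPT11 was higher for BCL11B, MYB and RUNX3 (15.2% of genes called, 7.17% higher and 8.08% lower), and none of these 3 calls held without the arrays that stood apart (adjusted p = 0.129, 0.074 and 0.0937). The effect in P12-ICHIKAWA was higher for GATA3 and BCL11B (8.38% of genes called, 3.65% higher and 4.73% lower). BCL11B itself was not called in P12-ICHIKAWA (change 0.03), and the lines it was set against include TALL-1 (-0.54). The effect in RPMI-8402 was higher for GATA3 (18.5% of genes, 7.08% higher and 11.4% lower), a call lost without the 3 arrays (adjusted p = 0.0506). Without the 3 arrays that stood apart the F test called BCL11B, GATA3, LEF1 and MYB and no longer RUNX3 (adjusted p = 0.0609), ETS1 (0.0833) and TCF12 (0.0911). In P12-ICHIKAWA the calls of ETS1 (adjusted p = 0.0627) and TCF12 (0.0686) were lost without them, although none of the 3 belongs to that line.

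Other signals moved with the groups. The ACTB 3' minus 5' control difference, a measure of RNA integrity, changed by 0.30 in RPMI-8402, 0.044 in P12-ICHIKAWA, 0.048 in SUPT11 and 0.49 in TALL-1. With DMSO it averaged 2.13 in RPMI-8402, 1.99 in P12-ICHIKAWA, 1.32 in SUPT11 and 2.01 in TALL-1. The DMSO levels of SUPT11 were thus compared with those of lines that also differed in this control difference. With it as a covariate the TALL-1 changes were -0.86 for GATA3, -0.51 for BCL11B and -0.23 for LEF1, all still called, while GATA3 (0.19) and TCF12 (0.18) in RPMI-8402 were not. In P12-ICHIKAWA beta-globin (HBB) read 11.45, 8.17 and 7.96 with NVS-ZP7-3, against 2.18, 2.29 and 2.18 with DMSO. It also read 10.48, 8.63 and 12.99 with NVS-ZP7-3 and 9.42, 2.32 and 14.65 with DMSO in RPMI-8402, 10.61 on array 2 of SUPT11 with NVS-ZP7-3 and 7.96 on array 1 of TALL-1 with NVS-ZP7-3. In RPMI-8402 the 8 myeloid markers summed to 20.2 to 25.5 with NVS-ZP7-3 and to 17.5 to 37.2 with DMSO, and LYZ read 12.54 on array 3 with DMSO, the array with the highest RUNX3 value of that group. Of 6 erythroid markers 3 were measured, and in P12-ICHIKAWA they had a summed level of 12.3 to 15.8 with NVS-ZP7-3 and 6.55 to 6.65 with DMSO, and ALAS2 and KLF1 were at the floor in both. In P12-ICHIKAWA the myeloid markers summed to 20.8 to 23.3 with NVS-ZP7-3 and 17.6 to 18.3 with DMSO, with LYZ the one off the floor. With HBB as a covariate GATA3 rose by 0.69 in P12-ICHIKAWA and was called, and RUNX3 (-1.12, adjusted p = 0.0679), ETS1 (0.26, adjusted p = 0.242) and TCF12 (0.20, adjusted p = 0.134) were not. All calls in that line went to 388 genes with this covariate, against 841 without it.

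When each of the 30 probe sets of the members was taken alone, 27 passed the filter. In TALL-1 all 27 changes were below 0, as were 48.5% of the 20461 probe sets tested. Of the 27, 12 from 7 genes were called lower and 0 higher, where 18.4% of all probe sets were called lower and 19.5% higher. RPMI-8402 had 4 called higher and 4 lower (13.5% and 21.1% of all), P12-ICHIKAWA had 6 and 1 (3.81% and 2.46%), and SUPT11 had 0 and 0 (0.885% and 0.533%). Beside those named above, the TALL-1 calls included ETS1 1555355_a_at (-0.39), ETS1 214447_at (-0.32), TCF12 238041_at (-0.31) and IKZF1 1565816_at (-0.64). Probe sets of 1 gene share its transcripts and are no replicates. Some of the 27 were near the floor in TALL-1 with DMSO, such as LEF1 221557_s_at (3.09) and IKZF1 216901_s_at (2.70). The ACTB covariate, which changed by 0.49 in TALL-1, was not fitted to single probe sets. This test of single probe sets was chosen after seeing the data.

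**Figure D4:**
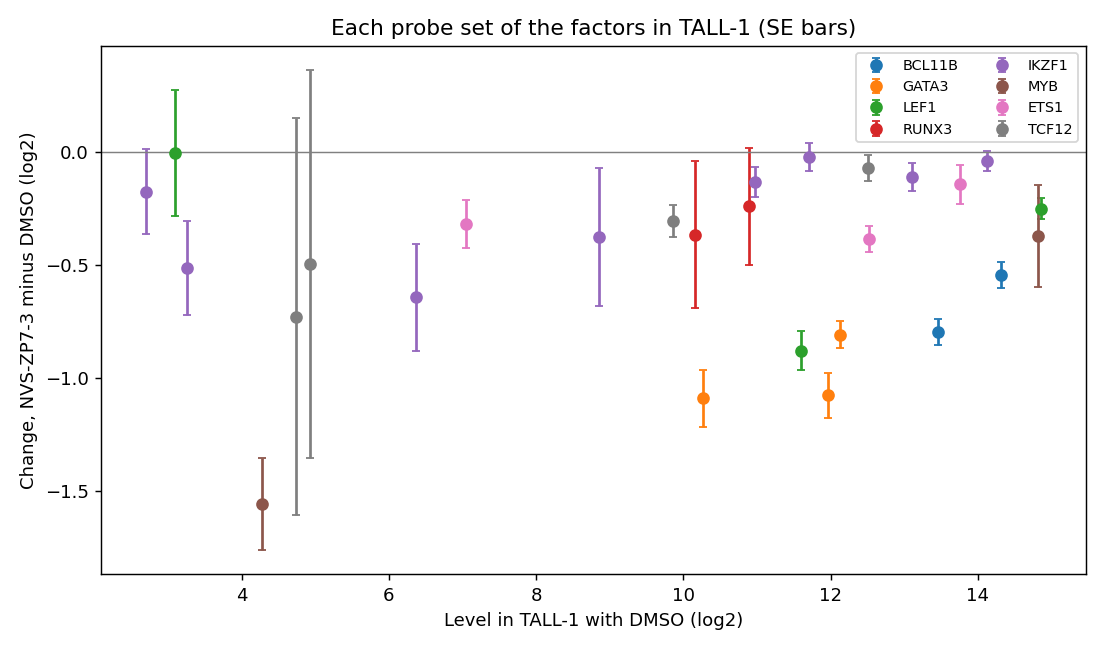
Change in TALL-1 with NVS-ZP7-3 against DMSO (log2, y axis, SE bars) of each probe set that passed the filter, by its level with DMSO (log2, x axis) and coloured by gene. All 27 lie below 0, from -0.01 for LEF1 221557_s_at to -1.56 for MYB 215152_at.

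Partners and relatives of the members were set beside them. Of 29 such genes 24 were tested. TALL-1 had 4 called higher and 8 lower (22.3% and 19.6% of all genes), and RPMI-8402 had 4 and 5 (15.1% and 21.5%). P12-ICHIKAWA had 3 and 1 (4.91% and 2.98%), and SUPT11 had 0 and 1 (1.18% and 0.582%). Without the arrays that stood apart RPMI-8402 had 5 and 4 and SUPT11 had 0 and 0, with the other lines as before. MYBL2, a cell-cycle relative of MYB, fell by 0.63 in RPMI-8402, by 0.58 in P12-ICHIKAWA and by 1.27 in TALL-1. RUNX2 averaged 7.56 with NVS-ZP7-3 and 8.40 with DMSO in TALL-1 (change -0.84), and 9.01 with NVS-ZP7-3 and 7.83 with DMSO in RPMI-8402 (change 1.17). CBFB, the shared partner of all RUNX proteins, fell by 0.14 in TALL-1 (adjusted p = 0.0103). IKZF2 (Helios) fell by 0.87 in TALL-1 and rose by 0.27 in P12-ICHIKAWA and by 0.29 in RPMI-8402. The ETS factor ELF1 rose by 0.43 in RPMI-8402, by 0.29 in P12-ICHIKAWA and by 0.54 in TALL-1. ID3, an inhibitor of E proteins such as TCF12, fell by 1.11 in TALL-1, and the corepressor TLE3 by 0.73. ID2, a relative of ID3, rose by 1.09 in TALL-1, from 2.25 with DMSO, near the floor. TLE4, a relative of TLE3, rose by 0.50 in RPMI-8402 and by 0.34 in P12-ICHIKAWA and was not called in TALL-1 (-0.08). Also in TALL-1, ETS2 fell by 0.70 and MYBL1 by 0.58, and TCF7L2 rose by 0.53 and IKZF5 by 0.38. In RPMI-8402 TCF4 fell by 0.44, TLE3 by 0.30, TCF7L2 by 0.26 and GATA2 by 0.18. ID1 fell by 0.87 in SUPT11, a call lost without the arrays that stood apart.

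Among 21 tested of 30 other thymocyte factors, RPMI-8402 had 7 called higher and 1 lower (15.1% and 21.5% of all genes). P12-ICHIKAWA had 1 and 2 (4.91% and 2.98%), and SUPT11 had 0 (1.18% and 0.582%). TALL-1 had 4 and 4 (22.3% and 19.6%), or 4 and 5 without the arrays that stood apart. TOX2 averaged 5.48 with NVS-ZP7-3 in TALL-1 and was at the floor there with DMSO (2.18). PRDM1, a factor of effector lymphocytes, rose by 2.38 in TALL-1, where it was near the floor with DMSO. Of 32 listed genes of the T lineage (receptor chains, coreceptors, Notch receptors and signalling proteins) 29 were tested. RPMI-8402 had 10 called lower and 1 higher (21.5% and 15.1% of all genes), and P12-ICHIKAWA had 5 lower (2.98%). TALL-1 had 12 lower and 1 higher (19.6% and 22.3%), and SUPT11 had none. Their median change was -0.15 in RPMI-8402, -0.06 in P12-ICHIKAWA, 0.00 in SUPT11 and -0.37 in TALL-1. That of all genes lay between -0.02 and 0.00. Without the arrays that stood apart RPMI-8402 had 10 lower and 0 higher, P12-ICHIKAWA 4 and 1, TALL-1 15 and 1, and SUPT11 0 and 1. CD2, an adhesion receptor, averaged 5.22 with NVS-ZP7-3 and 8.81 with DMSO in RPMI-8402 (change -3.59). The chemokine receptor CCR9 fell by 3.73 in RPMI-8402 and rose by 1.85 in TALL-1. CD3G, a chain of the T-cell receptor complex, fell by 0.53 in RPMI-8402, by 0.20 in P12-ICHIKAWA and by 0.45 in TALL-1. CD3D fell by 0.24 in RPMI-8402 and by 0.27 in TALL-1 and was not called in P12-ICHIKAWA (-0.08). The chains CD3E and CD247 were not called in any line, with changes between -0.11 and 0.23.

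**Figure D5:**
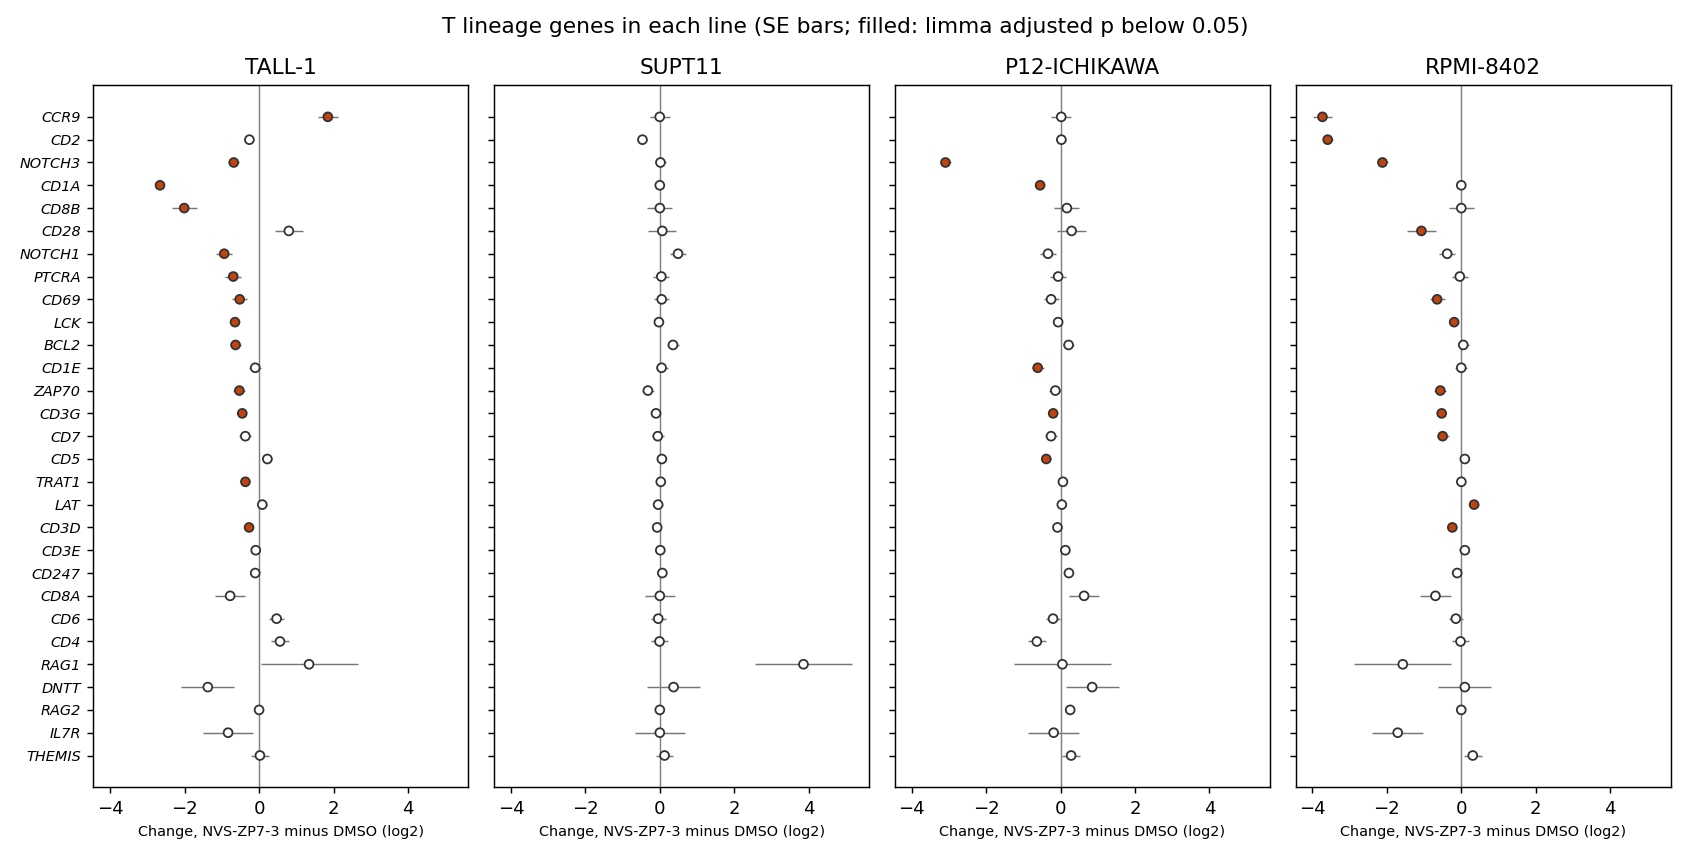
Change with NVS-ZP7-3 against DMSO (log2, x axis, SE bars) of the 29 tested T-lineage genes in each line, filled for an adjusted p below 0.05. CD2 lies at -3.59 in RPMI-8402, and no point is filled in SUPT11.

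Over the 24 arrays, which fall into 4 clusters by line, the tested genes most like each member by Pearson's r were NREP (0.930) and BRI3BP (0.919) for BCL11B, RDM1 (0.923) and MYMX (0.921) for GATA3, ARID2 (0.910) and MACROH2A1 (0.904) for LEF1, and VOPP1 (0.990) and AREL1 (0.981) for RUNX3. They were NSMCE1 (0.989) and UBL7-DT (0.984) for IKZF1, SH2D1A (0.997) and TIMP2 (0.995) for MYB, KANSL1-AS1 (0.969) and TAF2 (0.959) for ETS1, and RTN4 (0.967) and ABHD17B (0.959) for TCF12.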

How the data were processed

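Per the labels' protocols, RNA of the cells was labelled and hybridised to 3' expression arrays. The values are log2 expression levels of 54675 probe sets, in a single table as the authors deposited it. GCRMA and limma appear in the submitters' processing notes, with no version or settings. The floor and the share of probe sets at it were read from the values. With no counts behind the values, precision depends on how many arrays there are and how far a gene is above the floor.

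Gene names came from GEO's (older) annotation of the platform: 41097 had 1 gene, 1801 several and 11777 none, and 41043 matched a RefSeq gene (GRCh38.p14). The brightest single-gene probe set stood for a gene, and 10661 genes that reached log2 4 on 3 arrays were tested. A model of 8 group means was fitted with limma 3.58.1 in R 4.3.3, with 16 residual degrees of freedom, and tested on simulated data. The members and lists were chosen with earlier results of these data known. By rule the text names all members, the 2 genes most like each, and from each list the 2 largest called changes. Partners and relatives of the members are named where called in some line. CD3G was chosen after its values were seen, and other chains of its complex were set beside it. Alternatives were other filters, probe set means, a block for the replicate number, quantile normalization, an intensity trend, median centring, single-line fits, the ACTB and HBB covariates, other thresholds, and leaving out arrays. Replicate numbers were not used as pairs, since 3 of 12 same-numbered pairs correlated above 0.1 and no line had all 3 of its pairs above it, although number 3 of P12-ICHIKAWA reached 0.424. The labels do not say what a number stands for.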

Additional observations from a re-analysis of the deposited data

Results flagged for a closer look

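The effect of NVS-ZP7-3 differed among the 4 lines by the interaction F test of limma for 6 members. The adjusted p was 4.33e-05 for BCL11B, 1.55e-09 for GATA3, 0.00258 for LEF1, 0.0257 for RUNX3, 0.0479 for ETS1 and 0.0243 for TCF12. Of all genes tested, 35.8% passed the same test.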

How the results depend on the processing

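Of the single changes under the alternatives, 476 kept their direction and side of the threshold, 24 lost the call, 7 gained it and 37 changed sign. The falls of BCL11B, GATA3 and LEF1 in TALL-1 and the rise of GATA3 in P12-ICHIKAWA held under every alternative run for single changes. With the mean of all probe sets, 3 of the turned values were past the threshold on one side, LEF1 (-0.32) and ETS1 (-0.17) in RPMI-8402 and TCF12 (-0.44) in P12-ICHIKAWA. Others turned there were BCL11B (-0.0015), LEF1 (-0.16), IKZF1 (-0.12), ETS1 (-0.034) and TCF12 (-0.13) in SUPT11, LEF1 (0.084) and IKZF1 (-0.0049) in P12-ICHIKAWA and IKZF1 (-0.085) in RPMI-8402. BCL11B in SUPT11 also turned with quantile normalization (-0.015), median centring (-0.0046) and the HBB covariate (-0.0050), LEF1 in P12-ICHIKAWA with median centring (0.0049) and the ACTB covariate (0.0015), and MYB in P12-ICHIKAWA with the HBB covariate (-0.29). Without the arrays with foreign transcripts BCL11B (-0.011) and GATA3 (-0.0084) in SUPT11 and IKZF1 (-0.0038) and MYB (0.0072) in RPMI-8402 turned. Leaving out 1 array, BCL11B in SUPT11 ranged from -0.011 to 0.016, GATA3 there from -0.016 to 0.060, LEF1 in P12-ICHIKAWA from -0.051 to 0.033, MYB there from -0.032 to 0.057, and in RPMI-8402 IKZF1 from -0.0038 to 0.034, MYB from -0.075 to 0.017 and ETS1 from -0.027 to 0.11. With the mean of all probe sets the calls were 6 members in TALL-1 (4442 genes in all, against 4471), 5 averaged over the lines and 5 in RPMI-8402 (4049 genes, against 3906). The cause was not tested. In P12-ICHIKAWA 2 members were called without the arrays with foreign transcripts, 1 with HBB as a covariate, 1 in the fit of the line alone, 2 at adjusted p below 0.01 and 2 with a change of at least 0.5. Calls over all genes there were 841, and 708, 388, 220, 434 and 326 under these settings in the same order. RUNX3 was lost there without NVS-ZP7-3 replicate 1 (-0.86, adjusted p = 0.0657). In RPMI-8402 1 was called with the ACTB covariate (3116 genes in all, against 3906) and 1 with a change of at least 0.5 (1620 genes), and for the average 1 with a change of at least 0.5. At adjusted p below 0.01 the effects of 3 members differed among the lines. Leaving out 1 array gave 0 to 1 calls in SUPT11 (MYB, without NVS-ZP7-3 replicate 1), 1 to 3 in P12-ICHIKAWA, 3 to 3 in RPMI-8402, 3 to 4 on average, 4 to 6 for differing effects and 8 to 8 for the DMSO levels. With 1 array of the line left out, all genes had 158 to 196 calls in SUPT11, 586 to 776 in P12-ICHIKAWA and 3254 to 3610 in RPMI-8402. For the average and the F tests, calls over all genes were counted only in the main fit. With the replicate number as a block TALL-1, P12-ICHIKAWA and RPMI-8402 had 3 calls each (4483, 800 and 3890 genes in all). SUPT11 had 0 (170 genes), and ETS1 was lost in P12-ICHIKAWA (adjusted p = 0.0531). Of 24 samples, 11 correlated best with their own number.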
